A study of Mus musculus with 6 samples.

Results

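Follicular regulatory T cells (Tfr cells) are suppressive CD4 T cells expressing Foxp3 that have moved into the B cell follicle, and they share much of the gene programme of follicular helper T cells (Tfh cells). The genes described here are 10 regulators, receptors and secreted factors of that programme: the transcription factors Bcl6, Ascl2, Tox and Tox2, the surface molecules Cxcr5, Icos and Cd200, the secreted factors Il21 and Sostdc1, and the antisense transcript P2rx7os. They were taken by gene symbol from a deposited table of 49585 genes, which holds 9 of the 10; P2rx7os is not analysed here. Of the 9 genes, 7 reached at least 1 FPKM in at least 3 libraries and were tested, and Ascl2 and Sostdc1 lay below that filter. FPKM counts sequenced fragments per gene, divided by gene length in kilobases and by the total of the library.

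The study sequenced poly(A) RNA of splenic Tregs from C57BL/6 mice that were 7 weeks old, in 3 wild-type (WT) libraries and 3 libraries whose label, Bach2-cKO, stands for a conditional knockout of Bach2, the gene of a transcriptional repressor. All 6 were sorted as B220-negative, CD4-positive and YFP-positive cells, with CD25 also named in the series' design text, and were then cultured for 24 hours on plate-bound antibodies against CD3 and CD28. The labels do not say what carries YFP, which promoter drives the recombination, which cells lack Bach2 or whether the libraries of a group came from separate mice, so the spread that p-values are set against may be technical only. By its title, the series asked how BACH2 bears on interleukin-2 receptor signalling, Treg homeostasis and Tfr development.

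As background, a T cell enters the follicle by gaining CXCR5, the receptor for the chemokine CXCL13, and losing CCR7, the receptor that holds it in the T cell zone. BCL6 is the repressor required for both Tfh and Tfr cells, and it is opposed by BLIMP-1, the product of Prdm1. Follicular B cells carry CXCR5 too, and germinal centre B cells also depend on BCL6, so RNA of either gene in a bulk library can come from T cells or from B cells. In bulk libraries, fewer cells of a type and less RNA per cell cannot be told apart.

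The libraries held between 27697735 and 43884431 reads, recovered from the steps of the FPKM values, and 1 read equalled 0.0228 to 0.0361 FPKM at a gene length of 1 kb. Bach2 itself did not check the labels: its RNA stood at 112.0, 111.4 and 99.4 FPKM in the WT libraries and at 88.9, 104.5 and 120.8 FPKM in the Bach2-cKO libraries. The directions below are therefore those between libraries labelled WT and libraries labelled Bach2-cKO. Foxp3, which defines Tregs, was present in every library, at 107.6 to 127.3 FPKM in WT and 104.2 to 153.5 FPKM in Bach2-cKO. RNA of 20 B cell marker genes was present in every library in spite of the B220-negative gate, with a summed level of 3784 to 4881 FPKM in WT and 5985 to 7551 FPKM in Bach2-cKO and no marker at 0. In limma's test across all genes, 9 of these 20 genes were higher in Bach2-cKO, 0 were lower and 11 had no call, and the count of 9 fell to 4 without WT replicate 1 or without WT replicate 3. The shares over all 13766 genes tested, to be read beside each marker count here, were 7.02% higher and 8.31% lower. The summed level of 16 T cell core genes, such as Cd3e and Cd4, ran the other way, from 4843 to 5247 FPKM in WT and from 3576 to 4166 FPKM in Bach2-cKO, and 7 of the 16 were lower in the test, or 4 without WT replicate 3 or Bach2-cKO replicate 2. Of 8 CD8 T cell markers 6 were higher in Bach2-cKO, and that count fell to between 2 and 3 in turn without each library other than Bach2-cKO replicate 3. Their summed level was 137.2 to 175.1 FPKM in WT and 241.7 to 433.7 FPKM in Bach2-cKO, and that of 8 NK cell markers was 52.3 to 76.9 FPKM and 147.9 to 255.1 FPKM. Of the NK cell markers 5 were tested, 2 were higher, Gzma and Klrc1, and 0 were lower. Gzma was the largest term in Bach2-cKO, with means of 10.6 FPKM in WT and 108.1 FPKM in Bach2-cKO. Tyrobp had means of 15.5 and 13.8 FPKM, and Ncr1, Klrb1c and Klra8 were too low to test. Of 10 myeloid markers 3 were tested and 0 passed, and their sum was 9.70 to 10.7 FPKM in WT and 11.1 to 41.4 FPKM in Bach2-cKO. The part of other cells in these sums and in the values of the follicular genes was not tested.

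The 2 groups differed in both directions among the follicular genes. Tox2 and Icos were higher in Bach2-cKO, Cd200 was lower, and Bcl6, Cxcr5, Tox and Il21 did not pass the test. Across all 13766 genes tested, an adjusted p under 0.05 was reached by 15.3% of genes, by 7.02% in the direction of higher and by 8.31% in the direction of lower levels in Bach2-cKO. Of the 7 tested follicular genes, 3 reached it, 2 higher and 1 lower. The groups did not overlap for 5 of the 7, with Cxcr5, Icos and Tox2 higher and Tox and Cd200 lower, against 35.6% of all genes tested. The median log2 change of the 7 was 0.22, beside -0.017 over all genes tested. When a score of the B cell markers was added to the model as a covariate, 0 of the 7 kept an adjusted p under 0.05, and calls over all genes fell to 95, or 0.690%. The score itself did not overlap between the groups, at 6.45, 6.83 and 6.48 in WT and 6.89, 7.24 and 6.99 in Bach2-cKO. This model can therefore separate the score from genotype only poorly. A call lost in it, here or below, does not tell B cell RNA from genotype.

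**Figure D1:**
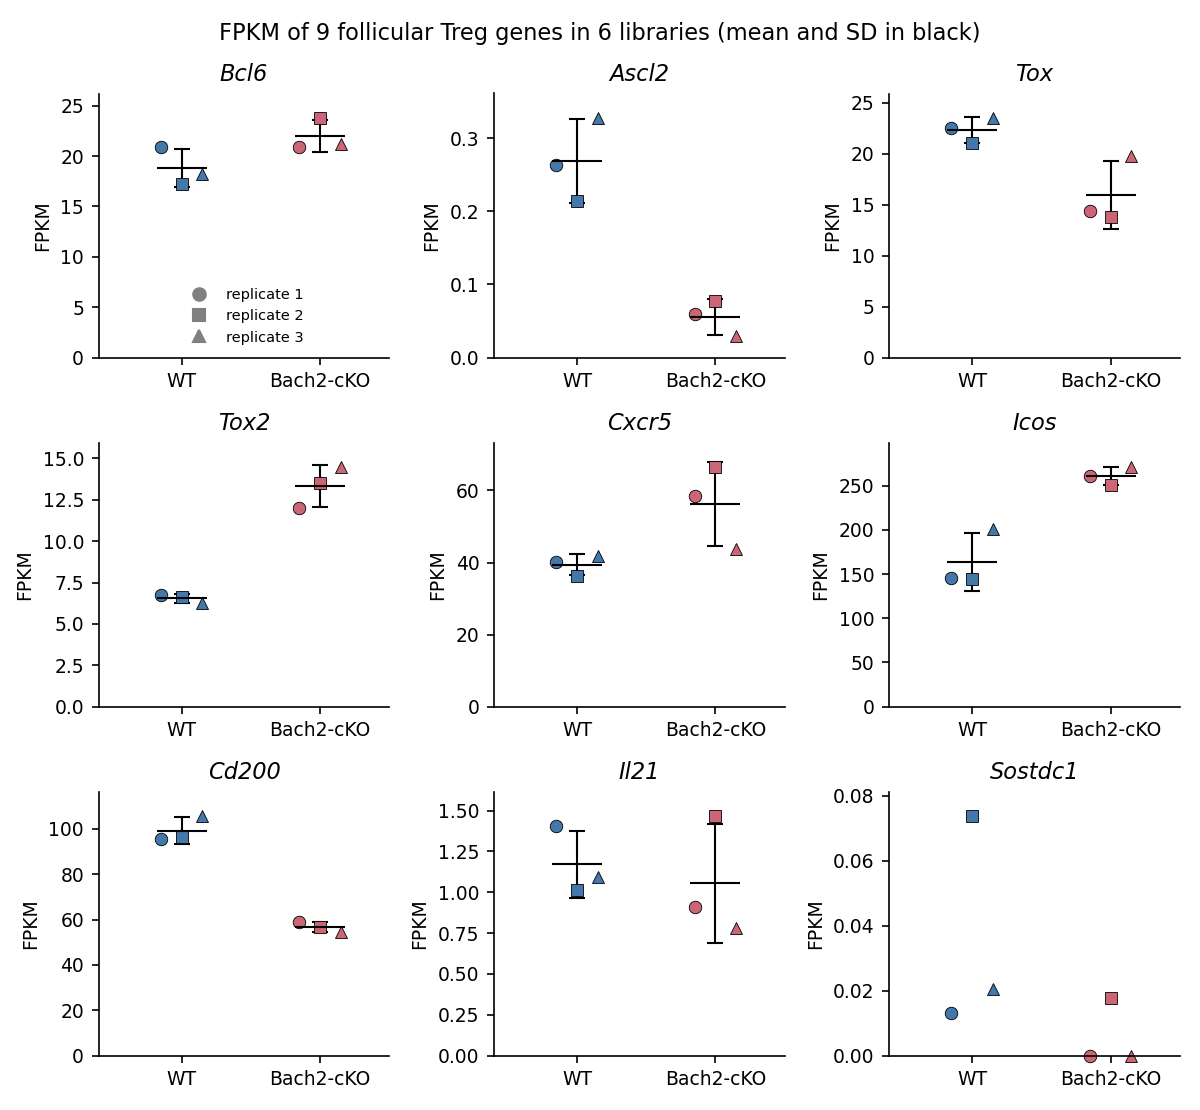
FPKM (vertical axis, linear, from 0, with its own range in each panel) of the 9 genes in the 3 WT and 3 Bach2-cKO libraries; symbols mark replicate numbers, and black bars give mean and SD, left out for Sostdc1. The groups are apart for Tox2, Icos and Cd200, and they overlap for Bcl6 and Il21.

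Bcl6, the repressor that establishes the follicular programme, stood at 20.9, 17.2 and 18.2 FPKM in WT and at 20.9, 23.8 and 21.2 FPKM in Bach2-cKO. WT replicate 1 lay just above the lowest Bach2-cKO library, so the groups overlapped. WT had a mean of 18.8 ± 1.91 FPKM and Bach2-cKO one of 22.0 ± 1.61 FPKM (SD over 3 libraries, as for all means below), and the change on the log2(FPKM + 1) scale was 0.22 (SE 0.095, 95% interval -0.0036 to 0.44; limma adjusted p = 0.168). The gene lies at chr16:23965052-23988852 on the minus strand of GRCm38. Its exons share bases with Gm37419 on the opposite strand, at means of 3.14 FPKM in WT and 4.77 FPKM in Bach2-cKO, and the sources used here do not say whether the counting used strand. Per 1000 FPKM of B cell markers, Bcl6 was 5.53, 3.53 and 4.73 in WT and 3.49, 3.15 and 3.50 in Bach2-cKO, all 3 Bach2-cKO libraries lower. The gap was narrow, 3.53 against 3.50. Ighm and Cd74 were the largest terms of the marker sum, and both were higher in Bach2-cKO in the test. Their means were 1325.9 and 737.3 FPKM in WT and 2241.0 and 1506.1 FPKM in Bach2-cKO. Whether the gap holds without them was not tested. Per 1000 FPKM of T cell core genes it was 4.30, 3.56 and 3.47 in WT and 5.42, 6.66 and 5.09 in Bach2-cKO, all 3 higher. Bcl6 thus has no direction that holds under both scales, and scaling to the T cell core genes gives it a limma adjusted p of 0.00904 while moving the median change of all genes by 0.336.

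The 250 bases upstream of the starts of Bcl6 are shown because interleukin-2 receptor signals act through STAT5, and STAT factors bind the palindrome TTCNNNGAA. RefSeq on GRCm38.p6 gives Bcl6 an outer start and an inner start, and the inner window lies inside the gene in none of its own exons. Capitals mark each TTCNNNGAA match; both this motif and TGANTCA, the core bound by AP-1 and by BACH2 with its MAF partners, read the same on either strand, and their matches were counted once.
Bcl6 outer start, chr16:23988853-23989102, minus strand: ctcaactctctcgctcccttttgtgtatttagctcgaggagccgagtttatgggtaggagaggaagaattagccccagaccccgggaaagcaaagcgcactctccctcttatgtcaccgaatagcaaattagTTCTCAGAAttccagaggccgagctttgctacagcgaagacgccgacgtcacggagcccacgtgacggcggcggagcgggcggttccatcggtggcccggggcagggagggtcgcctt
Bcl6 inner start, chr16:23981284-23981533, minus strand: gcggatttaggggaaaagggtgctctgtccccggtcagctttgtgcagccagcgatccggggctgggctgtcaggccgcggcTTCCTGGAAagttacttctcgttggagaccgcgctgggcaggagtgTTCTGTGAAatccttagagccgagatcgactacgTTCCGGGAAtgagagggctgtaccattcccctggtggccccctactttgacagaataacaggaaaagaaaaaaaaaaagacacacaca
The outer window holds 1 TTCNNNGAA match, beginning 118 bases before the start, and the inner window holds 3, beginning 168, 122 and 88 bases before it. Of all 32851 promoter windows of this length, 7.02% hold at least 1 such match and 0.0274%, or 9 windows, hold 3 or more. Neither Bcl6 window holds TGANTCA, which 6.75% of windows hold. These are matches of letters, and no binding was measured.

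Ascl2, a basic helix-loop-helix factor that can induce Cxcr5 in T cells, was close to the detection limit in every library. It stood at 0.264, 0.214 and 0.328 FPKM in WT, from 14, 8 and 11 reads, and at 0.0597, 0.0775 and 0.0298 FPKM in Bach2-cKO, from 2, 3 and 1 reads. All 3 Bach2-cKO libraries lay below all 3 WT libraries. The pooled read rate was 4.69 times higher in WT (95% interval 1.94 to 13.7, which covers counting error only). An exact two-sided permutation test gave p = 0.1, the smallest that 3 libraries against 3 allow. When the filter on low values was left out, limma gave a log2(FPKM + 1) change of -0.26 (SE 0.045, adjusted p = 0.0359 over 28530 genes), where this scale understates the change of a gene so low. Ascl2 lies at chr7:142966829-142969264 on the minus strand. Its upstream window, shown as that of a gene read in all 6 libraries and lower in all 3 of Bach2-cKO, holds neither motif, which says only that those letters are not in it.
Ascl2, chr7:142969265-142969514, minus strand: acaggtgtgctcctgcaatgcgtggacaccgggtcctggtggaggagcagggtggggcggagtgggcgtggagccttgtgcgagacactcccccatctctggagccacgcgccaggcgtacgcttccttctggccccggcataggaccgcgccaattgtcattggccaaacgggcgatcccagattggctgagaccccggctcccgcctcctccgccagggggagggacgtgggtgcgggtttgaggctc

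Tox and Tox2 encode paralogous high-mobility-group factors. TOX is needed for the development of CD4 T cells and rises in chronically stimulated T cells, and TOX2 is linked to the chromatin changes of Tfh cells. Tox2 stood at 6.75, 6.65 and 6.26 FPKM in WT and at 12.0, 13.5 and 14.5 FPKM in Bach2-cKO. Every Bach2-cKO library lay well above every WT library. The mean rose from 6.55 ± 0.259 to 13.3 ± 1.26 FPKM, a ratio of 2.04 and a log2 change of 0.92 (SE 0.098, 95% interval 0.69 to 1.15; limma adjusted p = 0.00136). In the model with the B cell score the change was 0.85 and limma's adjusted p was 0.103. Tox stood at 22.5, 21.0 and 23.5 FPKM in WT and at 14.3, 13.8 and 19.8 FPKM in Bach2-cKO. The groups did not overlap, with Bach2-cKO replicate 3 nearest to WT. The log2 change was -0.48 (SE 0.134, 95% interval -0.79 to -0.16), and its limma adjusted p of 0.0524 missed the threshold. It was 0.00435 without Bach2-cKO replicate 3 and 0.0211 by limma-voom on recovered reads, the only 2 of 14 alternatives in which Tox passed. Without each other library in turn it was 0.0964 to 0.160. Under scaling to T cell core genes the change of Tox was -0.12 (limma adjusted p = 0.384).

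The balance of the pair shifted while its sum did not separate the groups. Tox2 per FPKM of Tox was 0.300, 0.316 and 0.266 in WT and 0.838, 0.979 and 0.733 in Bach2-cKO, 2.89 times higher on average. Tox and Tox2 together were 29.2, 27.7 and 29.8 FPKM in WT and 26.3, 27.3 and 34.3 FPKM in Bach2-cKO, with overlap. Per 1000 FPKM of T cell core genes, Tox overlapped between the groups, at 4.34 to 4.61 in WT and 3.73 to 4.75 in Bach2-cKO, and Tox2 did not, at 1.19 to 1.39 and 3.12 to 3.78. Tox lies at chr4:6686353-6991557 on the minus strand and Tox2 at chr2:163203125-163324170 on the plus strand. Tox shares exon bases with Gm11802 on the opposite strand, which had a mean of 0.0514 FPKM in WT and 0.135 FPKM in Bach2-cKO.

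Cxcr5, the receptor that leads cells into the follicle, stood at 40.3, 36.3 and 41.7 FPKM in WT and at 58.6, 66.6 and 43.7 FPKM in Bach2-cKO. The Bach2-cKO libraries all lay above WT but were far apart, with replicate 3 only just above the highest WT library. The means were 39.4 ± 2.82 and 56.3 ± 11.7 FPKM, with a log2 change of 0.48 (SE 0.145, 95% interval 0.15 to 0.82) and a limma adjusted p of 0.0629 that missed the threshold. Without Bach2-cKO replicate 3 the adjusted p was 0.00518, and it was 0.0339 by limma-voom on recovered reads. Without each other library in turn it was 0.0982 to 0.171. The gene lies at chr9:44511787-44561877 on the minus strand and shares exon bases with Bcl9l on the opposite strand, at means of 12.7 FPKM in WT and 12.4 FPKM in Bach2-cKO.

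Cxcr5 was also set beside B cell markers. Ms4a1, which encodes the B cell antigen CD20, stood at 73.6, 104.4 and 79.9 FPKM in WT and at 118.3, 155.2 and 127.1 FPKM in Bach2-cKO, and rose by 0.64 on the log2 scale (limma adjusted p = 0.0268). Cxcr5 per FPKM of Ms4a1 was 0.547, 0.347 and 0.522 in WT and 0.495, 0.429 and 0.344 in Bach2-cKO, with overlap. Within the groups the order of libraries differed: WT replicate 2 had the lowest Cxcr5 and the highest Ms4a1 of WT, and Bach2-cKO replicate 3 had less Cxcr5 and more Ms4a1 than Bach2-cKO replicate 1. Per FPKM of Cd22 it was lower in all 3 Bach2-cKO libraries, at 0.323 to 0.367 against 0.443 to 0.533. Per 1000 FPKM of T cell core genes it was higher in all 3, at 15.2, 18.6 and 10.5 against 8.27, 7.49 and 7.95. The separation of the groups in Cxcr5 was thus absent per FPKM of Ms4a1, and whether its RNA came from T cells or B cells cannot be told apart in these libraries. In the model with the B cell score, the log2 change of Cxcr5 was 0.44 with a limma adjusted p of 0.472.

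**Figure D2:**
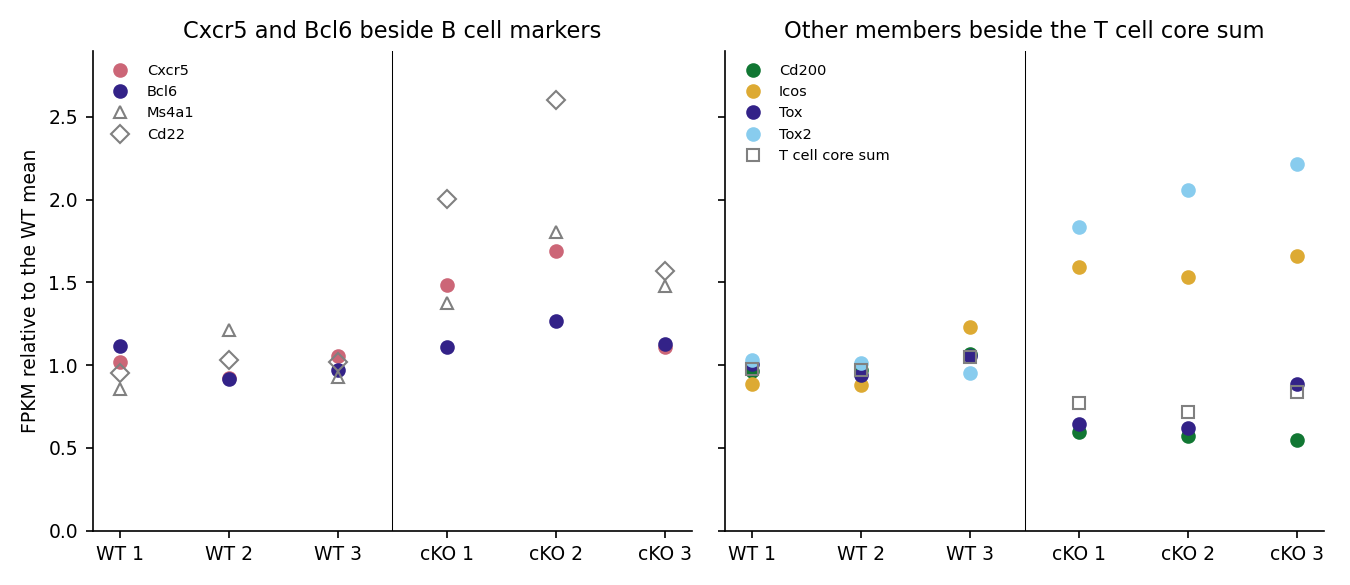
FPKM of each gene or marker sum in each library, divided by its mean over the 3 WT libraries (vertical axis, linear, from 0). On the left, Cxcr5 in Bach2-cKO lies near Ms4a1 in replicates 1 and 2 and below it in replicate 3; on the right, Tox2 and Icos lie above the T cell core sum and Cd200 below it in all 3 Bach2-cKO libraries.

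Germinal centre B cell markers were mostly without a call or too low to test. Of 10 such genes, Bcl6 among them, 5 were tested, 0 were higher in Bach2-cKO and 1, Fas, was lower. Rgs13, Mef2b, Nuggc and Gcsam were below 0.5 FPKM in every library. Plasma cell markers were higher for 5 of 9 tested genes and lower for 0. Beside both lists, 7.02% of all genes tested were higher and 8.31% lower. Prdm1 and Irf4 of the plasma cell list are also T cell genes.

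Icos, the costimulatory receptor that signals through phosphoinositide 3-kinase and is needed to form and keep Tfh cells, had the highest level of the follicular genes. It stood at 145.7, 144.5 and 201.7 FPKM in WT and at 261.2, 251.4 and 271.8 FPKM in Bach2-cKO. The Bach2-cKO libraries lay close together and above WT, where replicate 3 stood above the other two. The mean rose from 164.0 ± 32.7 to 261.5 ± 10.2 FPKM, a log2 change of 0.69 (SE 0.127, 95% interval 0.39 to 0.98; limma adjusted p = 0.0115). Without the filter on low values the adjusted p was 0.0550, and in the model with the B cell score it was 0.136, with a change of 0.89. Icos per FPKM of Cd28, the related receptor engaged by the culture, was 0.794, 0.949 and 1.05 in WT and 1.68, 1.66 and 1.60 in Bach2-cKO. Cd28 itself did not pass the test, with a log2 change of -0.15 (adjusted p = 0.353). Icos lies at chr1:60977927-61000320 on the plus strand, where Gm37039 overlaps it on the same strand with no shared exon bases.

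Cd200 encodes a surface glycoprotein of the immunoglobulin superfamily that is carried by Tfh cells and by B cells and engages an inhibitory receptor, the product of Cd200r1. It stood at 95.5, 96.4 and 105.9 FPKM in WT and at 59.1, 56.5 and 54.7 FPKM in Bach2-cKO. The 2 groups were far apart relative to their spread. The mean fell from 99.3 ± 5.76 to 56.7 ± 2.22 FPKM, a ratio of 0.572 and a log2 change of -0.80 (SE 0.064, 95% interval -0.95 to -0.65; limma adjusted p = 0.000556). In the model with the B cell score the change was -0.74 and the adjusted p was 0.0533. Cd200 was also lower per 1000 FPKM of T cell core genes, whose sum was itself lower, at 15.4, 15.8 and 13.1 in Bach2-cKO against 19.6, 19.9 and 20.2 in WT. Cd200 lies at chr16:45382135-45409053 on the minus strand, and its upstream window, shown as that of the follicular gene that fell in the test, holds neither motif.
Cd200, chr16:45409054-45409303, minus strand: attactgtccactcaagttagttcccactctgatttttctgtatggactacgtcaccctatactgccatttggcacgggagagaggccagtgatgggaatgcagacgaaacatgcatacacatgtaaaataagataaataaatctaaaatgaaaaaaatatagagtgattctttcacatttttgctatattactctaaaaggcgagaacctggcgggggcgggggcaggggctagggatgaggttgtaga

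**Figure D3:**
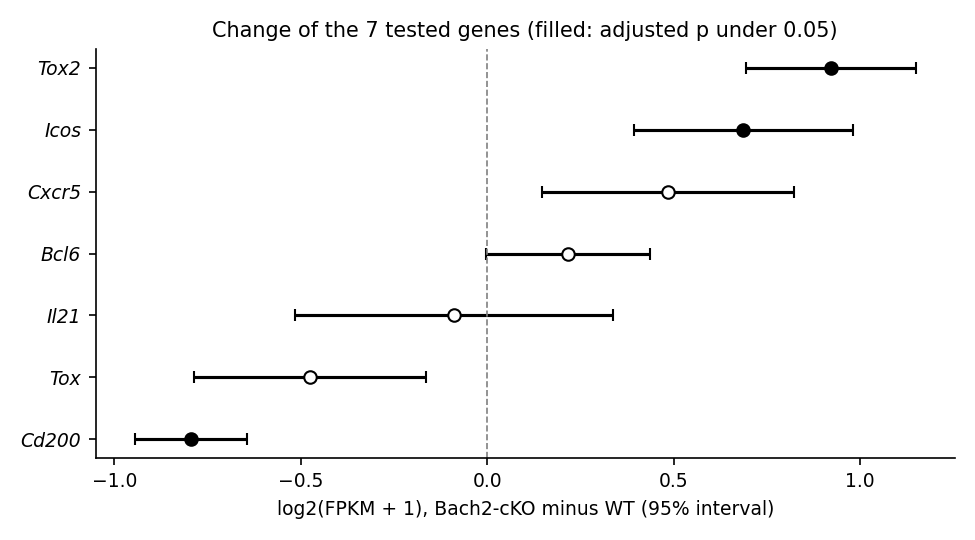
Change in log2(FPKM + 1), Bach2-cKO minus WT, of the 7 tested genes (points, filled where limma's adjusted p was under 0.05) with 95% intervals (bars). Tox2, Icos and Cd200 are filled; the intervals of Cxcr5 and Tox leave out 0 although both missed the adjusted threshold, and those of Bcl6 and Il21 include it.

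Il21, the cytokine by which Tfh cells help germinal centre B cells and which Tfr cells are known to make little of, was low in every library. It stood at 1.40, 1.01 and 1.09 FPKM in WT, from 122, 62 and 60 reads, and at 0.912, 1.47 and 0.782 FPKM in Bach2-cKO, from 50, 93 and 43 reads. The groups overlapped fully. The log2 change was -0.090 (SE 0.18, 95% interval -0.52 to 0.34; limma adjusted p = 0.781), and the pooled read rate in Bach2-cKO was 0.893 times that in WT (95% interval 0.734 to 1.09, counting error only). The sign of this change turned without Bach2-cKO replicate 3, to 0.0055, and under scaling to T cell core genes, to 0.11. Il21 lies at chr3:37222759-37232636 on the minus strand and shares exon bases with Gm12534 on the opposite strand, which had a mean of 0 in both groups. Its receptor gene Il21r was well expressed, at 106.0 ± 8.04 FPKM in WT and 106.5 ± 11.4 FPKM in Bach2-cKO, with a log2 change of 0.0042 (adjusted p = 0.982).

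Sostdc1, which encodes a secreted antagonist of BMP and Wnt signals reported in Tfh cells, was at the limit of detection. It had 1, 4 and 1 reads in WT and 0, 1 and 0 reads in Bach2-cKO, or 0.0130, 0.0739 and 0.0206 FPKM against 0, 0.0179 and 0 FPKM. A floor of 3 reads corresponds to 0.0390 to 0.0619 FPKM, and only WT replicate 2 lay above its floor. The ratio of pooled read rates, WT over Bach2-cKO, was 5.12 with a 95% interval of 0.621 to 236 for counting error only, and the exact permutation test gave p = 0.2. A difference in Sostdc1 was not detectable at this depth. The gene lies at chr12:36314169-36318452 on the plus strand.

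P2rx7, the gene for the ATP-gated channel beside which P2rx7os is named, restrains Tfh cells in the gut. It stood at 35.6, 30.5 and 39.8 FPKM in WT and at 30.8, 32.0 and 36.8 FPKM in Bach2-cKO. The groups overlapped, and the log2 change of -0.080 did not pass the test (limma adjusted p = 0.668). Its sign turned under 3 alternatives. It lies at chr5:122643911-122691432 on the plus strand.

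Levels were compared between genes per length, here the mean length of a gene's annotated transcripts, which is the length that the deposited FPKM used for most genes. In WT the order from high to low was Icos, Cd200, Cxcr5, Tox, Bcl6, Tox2, Il21, Ascl2 and Sostdc1, and no neighbours overlapped over the 3 libraries. In Bach2-cKO the order was Icos, Cd200, Cxcr5, Bcl6, Tox, Tox2, Il21, Ascl2 and Sostdc1, and Cd200 overlapped with Cxcr5, and Tox with Tox2. The length matters to this order. Cd200 has 11 annotated transcripts with a mean length of 913 bases and a longest of 2347, and per longest transcript its WT mean was 38.6 FPKM beside 25.0 for Cxcr5, where the deposited values give 99.3 and 39.4. In Bach2-cKO the order of the pair turned on that length, with Cxcr5 at 35.7 FPKM (27.7 to 42.2) above Cd200 at 22.1 FPKM (21.3 to 23.0), with no overlap. On the same basis Bcl6 lay above Tox in WT, at 17.8 against 13.1 FPKM. The ratio between the groups for 1 gene does not depend on the length.

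The partners of these genes, their ligands, receptors, cofactors and dimer partners, were mostly without a call. Of 22 partner genes 19 were tested, 2 were higher, 2 were lower and 15 had no call, with a median log2 change of -0.027. Over all genes tested, 7.02% were higher and 8.31% lower. Cd200r1, the gene of the CD200 receptor, rose from 22.8 ± 1.24 to 37.8 ± 8.93 FPKM (log2 change 0.68, limma adjusted p = 0.0209) as Cd200 fell, and Cd200 per FPKM of Cd200r1 went from 4.36, 4.32 and 4.37 to 1.84, 1.70 and 1.14. Tcf4, which encodes an E protein of the kind that basic helix-loop-helix factors such as ASCL2 pair with, rose by 0.64 (adjusted p = 0.0125). Il2rg, the common gamma chain used by the receptors for interleukin-2 and interleukin-21, fell by 0.34 (adjusted p = 0.00881), and its sign turned under scaling to T cell core genes. Pik3r1, a regulatory subunit of phosphoinositide 3-kinase, fell by 0.39 (adjusted p = 0.0144), but its change was -0.028 (adjusted p = 0.809) under that scaling. Icosl, the ICOS ligand, stood at 8.54 ± 1.51 and 7.34 ± 1.08 FPKM (log2 change -0.19, adjusted p = 0.451). Cxcl13, the CXCR5 ligand, was listed at 0 in every library other than WT replicate 3, with 0.126 FPKM. In the model with the B cell score 0 partner genes were called in either direction, and the change of Tcf4 was 0.33 (adjusted p = 0.395). Without WT replicate 1 the partner genes called were 0 higher and 1 lower, and without WT replicate 2 there was 1 higher.

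The wider follicular programme was read from lists of genes outside the 10, chosen with earlier results of these data known. Of 66 genes 63 were tested, and 16 were higher, 15 were lower and 32 had no call in Bach2-cKO, with a median log2 change of 0.0072. The shares over all genes tested were 7.02% higher and 8.31% lower. Among 20 factors, 6 were higher and 5 lower (median 0.076). Prdm1, which encodes the BCL6 antagonist BLIMP-1, rose from 12.7 ± 3.43 to 36.5 ± 2.30 FPKM, a log2 change of 1.48 (limma adjusted p = 0.00154). Maf, an inducer of Il21 and Il4 in Tfh cells, rose by 0.93 (adjusted p = 0.00214). Tcf7 and Lef1, which encode the partner factors TCF-1 and LEF-1 that act upstream of Bcl6 in Tfh cells, fell by 1.37 and 1.12 (adjusted p = 0.000523 and 0.000509). The count of lower factors was 3 when replicate 1 or replicate 2 of either group was left out.

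Among 34 tested receptors and signalling genes, 5 were higher and 9 lower (median -0.060). Ccr7 fell by 1.49 (adjusted p = 0.000204), and Il6ra and Il6st, the 2 chains of the interleukin-6 receptor, fell by 1.24 and 0.80 (adjusted p = 0.00027 and 0.000612). Rgs16, a regulator of G protein signalling from chemokine receptors, rose by 1.24 (adjusted p = 0.000509). Among 9 tested secreted factors of 11, 5 were higher and 1 lower (median 1.27). Il4 rose from 1.66 ± 0.559 to 8.45 ± 1.14 FPKM (log2 change 1.85, adjusted p = 0.000915), Fgl2, a suppressive product of Tregs, rose by 1.27 (adjusted p = 0.000722), and Il10 rose by 1.34 (adjusted p = 0.0117). Nrn1, the gene of neuritin, a product of Tfr cells, fell by 0.92 (adjusted p = 0.00888). Il21 thus had no call in libraries in which Il4 and Il10 were higher. The count of higher secreted factors was 3 without WT replicate 1 or without Bach2-cKO replicate 2, and the count of lower ones was 2 without Bach2-cKO replicate 3. CD8 T cell, NK cell and B cell marker sums were higher in the same Bach2-cKO libraries, and their part in these secreted factors was not tested. In the model with the B cell score, Prdm1, Tcf7, Lef1, Ccr7, Il6ra, Rgs16 and Fgl2 passed the test. In that model Maf (adjusted p = 0.0517), Il6st (0.0517), Il4 (0.0765), Il10 (0.254) and Nrn1 (0.328) did not.

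**Figure D4:**
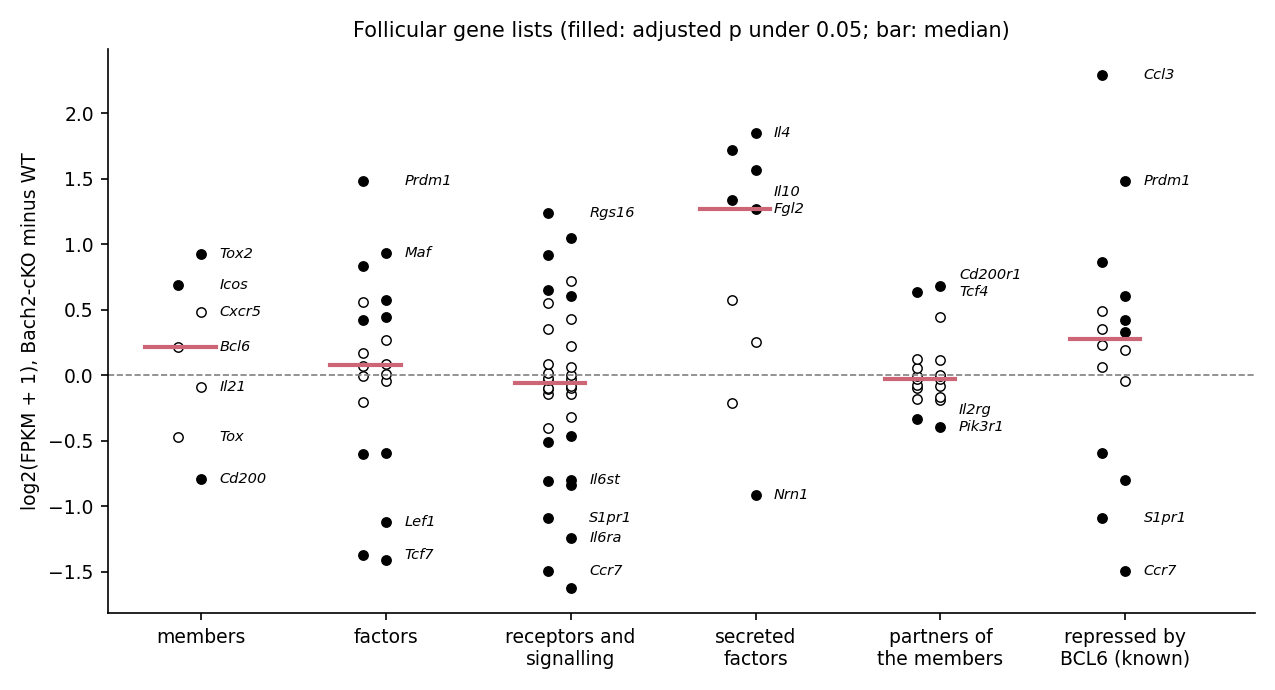
Change in log2(FPKM + 1), Bach2-cKO minus WT (vertical axis), of each tested gene (points, filled where limma's adjusted p was under 0.05) in the 10 genes and the lists of follicular genes, partners and genes repressed by BCL6; red bars are medians. Calls lie on both sides of 0 in each group, and the secreted factors have the highest median, 1.27.

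Genes that BCL6 is known to repress in T cells were set beside Bcl6. Of 16 such genes, 6 were higher and 4 lower in Bach2-cKO, beside 7.02% and 8.31% of all genes tested. Their median log2 change was 0.28, and 7 of the 16 also stand in the lists above. Ccl3, a chemokine, rose by 2.29 (limma adjusted p = 0.00219), and Prdm1 rose as given above. Ccr7 fell as given above, and S1pr1, the receptor by which lymphocytes leave tissue, fell by 1.09 (adjusted p = 0.00229). The list moved in both directions, and without Bach2-cKO replicate 1 the higher count was 3. In the model with the B cell score 1 gene was higher and 1 lower, and neither Ccl3 (adjusted p = 0.0853) nor S1pr1 (0.0974) passed. Prdm1 per FPKM of Bcl6 was 0.549, 0.582 and 0.909 in WT and 1.88, 1.49 and 1.65 in Bach2-cKO, 2.46 times higher on average.

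The genes most like Bcl6, Cxcr5 and Cd200 in their levels over the 6 libraries were read from 9290 genes with a mean of at least 5 FPKM, by Pearson's r on log2(FPKM + 1), as a description of 6 points that share genotype, cell makeup and depth. For Bcl6 they were Tstd2, Plcd3 and Bid, at 0.990, 0.989 and 0.986. For Cxcr5 the first and second were Tgfbr3 and Focad, at 0.997 and 0.995, and both, as Cxcr5, were highest in Bach2-cKO replicate 2 and lowest among Bach2-cKO in replicate 3. For Cd200 they were Ahcyl2, Decr1 and Gpr83, at 0.997, 0.997 and 0.996. Gpr83 is a receptor gene characteristic of Tregs, and it stood at 18.9, 18.7 and 23.0 FPKM in WT and at 5.60, 4.79 and 5.43 FPKM in Bach2-cKO. Of 10 Treg marker genes, Gpr83 among them, 5 were lower and 1 was higher in Bach2-cKO, or 3 lower without WT replicate 1. Among all genes tested, 8.31% were lower and 7.02% higher.

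**Figure D5:**
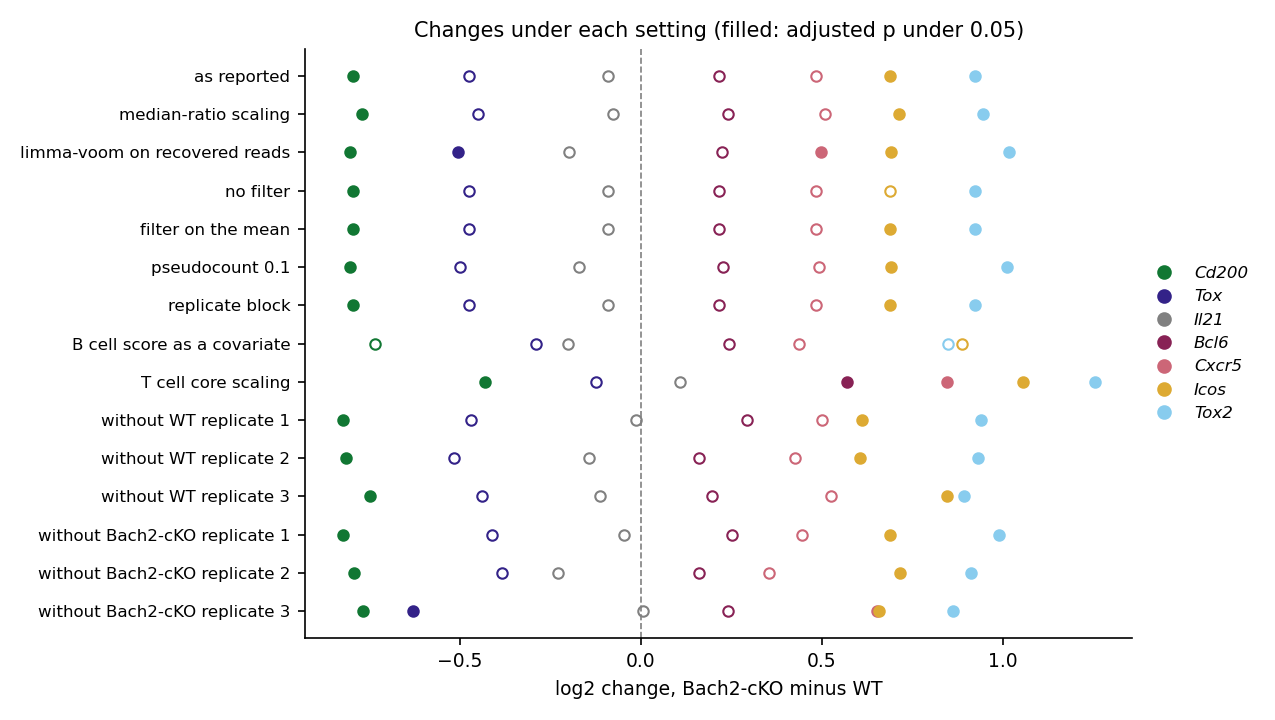
Log2 change, Bach2-cKO minus WT (horizontal axis), of the 7 tested genes under the reported setting and 14 alternatives (filled where the adjusted p was under 0.05). Tox2, Icos and Cd200 keep their side of 0 throughout, Il21 crosses it, and no point is filled in the model with the B cell score.

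Over the 14 alternatives the log2 change of Tox2 ran from 0.85 to 1.25, that of Icos from 0.61 to 1.06 and that of Cd200 from -0.82 to -0.43. Tox2 and Cd200 passed the test in 13 of the 14 and Icos in 12. Cxcr5 passed in 3 of the 14, Tox in 2, Bcl6 in 1 and Il21 in 0. Cxcr5, Bcl6 and Tox kept their sign throughout, between 0.35 and 0.85, between 0.16 and 0.57 and between -0.63 and -0.12.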

How the data were processed

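The submitters' processing notes list HISAT2 2.0.5, featureCounts 1.5.0-p3 and mm9, and the sources used here give no other step. FPKM per gene, as the authors deposited it for 6 libraries, is the unit of all levels. Gene positions equal GENCODE M21 on GRCm38 for 45128 of 49326 identifiers, so that build is given. FPKM steps gave whole reads (tolerance 0.001 reads) for all 28530 genes above 0, for 84.8% at the rounded mean length of their transcripts.

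The filter kept genes reaching 1 FPKM in 3 or more libraries, and the test ran on log2(FPKM + 1) with limma 3.58.1 (lmFit, eBayes with trend) in R 4.3.3. It compared Bach2-cKO with WT, two-sided, without covariates, adjusted by Benjamini-Hochberg at 0.05. The plan allowed for counts or FPKM, and the FPKM test applied. The test was also run on simulated reads of independent libraries with a fixed dispersion. That run held no shift in cell makeup and no shared source of libraries, so it does not check the calls against these. Exact tests used SciPy 1.17.1. Intervals cover 95%. Alternatives were scaling, limma-voom on recovered reads, filters, pseudocount, replicate block, thresholds, a B cell score as covariate, and leaving out each library; T cell core scaling and levels per longest transcript were added after seeing the data. Members and lists were chosen with earlier results of these data known. Named genes were all members, in each list up to 4 called genes with the smallest p, partners, markers, and the 3 genes most correlated with Bcl6, Cxcr5 and Cd200. Some genes that this rule names are not reported here. Promoters are from RefSeq on GRCm38.p6, with an entry for 5 of the 10 genes. FPKM depends on each library's total.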

Additional observations from a re-analysis of the deposited data

How the results depend on the processing

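The count of genes called was 2111 as reported, 1182 with no filter on low values, 95 with the B cell score in the model (94 of them called as reported), 6593 under T cell core scaling (6164 higher and 429 lower, beside 967 and 1144 as reported), 795 at an adjusted p under 0.01, and 1054 to 2599 when each library was left out in turn. Of the follicular genes described, 3 were called as reported, 5 by limma-voom on recovered reads, 0 with the B cell score, 5 under T cell core scaling, 2 at an adjusted p under 0.01, and 3 to 5 when each library was left out, with 5 without Bach2-cKO replicate 3. Of the follicular genes outside these, 31 were called as reported, 7 with the B cell score, 50 under T cell core scaling and 20 at an adjusted p under 0.01. The cause was not tested. The log2 change of Il21 was 0.11 under T cell core scaling and ran from -0.23 to 0.0055 when each library was left out; that of P2rx7 was 0.13 with the B cell score, 0.28 under T cell core scaling and -0.18 to 0.0081 when each library was left out; that of Il2rg was 0.032 under T cell core scaling. With the replicate block, 1282 genes were called. The deviations of same-numbered libraries from their group means had correlations of -0.0526, 0.0058 and -0.215. Those of differently numbered libraries ran from -0.134 to 0.178. With so few libraries these values do not settle whether same-numbered libraries were paired. The block changed no call of the 7 tested genes. Ascl2 and Sostdc1 are limited by depth, with at most 14 reads in a library.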
